A study of Mus musculus with 16 samples.

Results

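The 10 genes described here encode working parts of macrophages and other phagocytes: Lyz2, Fcer1g, Fcgr1, Fcgr3, Ptpn6, Lcp1, Cybb, Cyba, Rac2 and Was. They were taken as the probes whose platform annotation gives one of these symbols alone. All 10 had a probe, 1 each, among 7114 named genes and 12761 features in all. The genes were chosen by their M833 minus WT differences on these same arrays, so those differences are given below as a description, and no test of them is used.

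The data were 16 2-colour arrays of total RNA from mouse cells. M833 had 8 arrays and WT had 8, and in each cell type 4 arrays carried the sample in Cy5 and 4 in Cy3. Every array carried the same common reference RNA in the other dye. By the study's title the cells are MEFs, which usually stands for mouse embryonic fibroblasts, and the subject is mutations of Met. The labels give no allele, sex, age, passage or make-up of the reference, and do not say what M833 stands for or whether arrays of one cell type came from separate cultures. P-values therefore measured the spread between arrays, which may be technical. Values are log2 ratios as deposited, read as sample over reference, a direction that the titles make likely but that no label states. A negative ratio then means less signal in the cells than in the reference. Were the ratios the other way round, every sign, every percentage lower and every higher or lower below would turn. A ratio depends on what the reference holds, so the ratios of different genes do not rank their levels. Replicate numbers only name arrays within a cell type, in the order of the sample records, and an M833 and a WT array of one number are not a pair.

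Macrophages take up particles coated with antibody through Fc gamma receptors. The antibody-binding chains Fcgr1 and Fcgr3 pass their signal through the gamma chain encoded by Fcer1g, and the phosphatase SHP-1, encoded by Ptpn6, damps signalling of this kind in blood cells. Engulfment needs new actin filaments, for which the product of Was activates the Arp2/3 complex and that of Lcp1, L-plastin, bundles filaments. The oxidase that then makes superoxide has Cybb as its catalytic and Cyba as its stabilising membrane chain and needs the GTPase Rac2 to become active. Lyz2 encodes the lysozyme of myeloid cells, which cleaves bacterial cell walls. Most of these genes are restricted to blood cells, while Cyba is expressed more widely. Fibroblasts are not a blood lineage.

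Bases just before the transcription start are shown for the 5 genes in which the search described here found a match, since the 10 genes were chosen for a difference in one direction. RefSeq sequences (GRCm38.p6) matched 9 of the 10 genes by symbol. In the 150 bases before each start, the letters GAGGAA and GGAAGT, core sequences of ets-family sites such as those of the myeloid factor PU.1, were searched on both strands, and the motifs can overlap by 4 letters. Capitals mark the matches, which on the other strand read as TTCCTC and ACTTCC. The windows lie at chr10:117282273-117282422 for Lyz2, chr3:96293970-96294119 for Fcgr1, chr1:171059395-171059544 for Fcgr3, chr6:124738710-124738859 for Ptpn6 and chrX:8090492-8090641 for Was, all on the minus strand and written 5′ to 3′ along the gene.
Lyz2: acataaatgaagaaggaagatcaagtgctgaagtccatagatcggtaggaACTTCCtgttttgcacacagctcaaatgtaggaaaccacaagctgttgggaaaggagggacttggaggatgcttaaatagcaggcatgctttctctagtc
Fcgr1: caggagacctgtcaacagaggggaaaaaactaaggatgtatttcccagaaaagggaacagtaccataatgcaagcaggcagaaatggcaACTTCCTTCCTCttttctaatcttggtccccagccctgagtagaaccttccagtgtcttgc
Fcgr3: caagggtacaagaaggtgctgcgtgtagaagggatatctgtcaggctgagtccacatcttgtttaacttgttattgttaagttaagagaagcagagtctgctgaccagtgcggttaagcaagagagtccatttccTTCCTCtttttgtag
Ptpn6: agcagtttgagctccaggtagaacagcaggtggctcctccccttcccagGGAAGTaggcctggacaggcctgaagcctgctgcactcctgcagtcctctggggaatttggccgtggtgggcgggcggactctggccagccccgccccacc
Was: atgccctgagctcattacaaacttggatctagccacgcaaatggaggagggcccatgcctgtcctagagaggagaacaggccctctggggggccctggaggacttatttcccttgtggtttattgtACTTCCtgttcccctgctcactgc
With the base before the start counted as -1, the motifs of Fcgr1 lay side by side, from -61 to -56 and from -55 to -50. The match lay at -100 to -95 in Lyz2, at -101 to -96 in Ptpn6 and at -24 to -19 in Was. The window of Fcgr3 shown, for 1 of 2 annotated starts, had its match at -15 to -10. GAGGAA stood in 2 of the 9 genes and in 14.5% of all 32851 windows of this length, GGAAGT in 4 of the 9 and in 13.6%, and either in 5 of the 9 and in 24.8%. A gene was counted if any of its windows held a match, and Fcgr3 and Lcp1 had 2 windows each. The percentages are of single windows, so the 2 measures are unlike. A match is a description of letters and not of a bound site.

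The deposited ratios of the 10 genes were negative in the difference M833 minus WT in every case, with a median of -0.44 on the log2 scale, where all features had a median of -0.03 and 60.6% had a negative difference. The mean of the 10 dye-adjusted ratios was -1.00 ± 0.08 over the M833 arrays and -0.45 ± 0.03 over the WT arrays (SD, n = 8 each). It ran from -1.13 to -0.85 in M833 and from -0.50 to -0.41 in WT, without overlap. In limma with dye orientation as a term, 8 of the 10 had a Benjamini-Hochberg adjusted p under 0.05, all lower in M833, beside 25.9% of all features in either direction, 15.9% lower and 10% higher. In 6 genes all 4 M833 arrays lay below all 4 WT arrays in both dye orientations, beside 6.49% of all features, and in 4.01% of all features the M833 arrays all lay above. With sets of 4 arrays as a random block 6 of the 10 were called, beside 11.5% of all features, and with the sample in Cy5 or in Cy3 alone 6 were called, beside 6.54% and 8.62%. Nothing is read from these counts, since the same contrast chose the genes. In such bulk RNA, fewer cells of a type and less RNA per cell cannot be told apart.

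Lyz2 had the largest difference of the 10. With the sample in Cy5 its log2 ratios were -1.65, -1.75, -1.70 and -1.86 on the M833 arrays, against 0.28, 0.22, -0.43 and -0.49 on the WT arrays. With the sample in Cy3 they were -2.23, -1.96, -2.26 and -2.44 in M833, against -0.14, -0.18, -0.74 and -1.04 in WT. Every M833 array was below every WT array, and the WT arrays fell into a higher and a lower pair in each dye. The fitted difference was -1.67 ± 0.14 (SE, n = 8 per cell type), so that the ratio, read as sample over reference, was 68.5% lower in M833. The mouse has a near-identical second lysozyme gene, Lyz1, and the probe sequence was not used here, so signal from the 2 genes cannot be told apart.

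Of the Fc receptor genes, Fcer1g differed most. This gamma chain is needed for both activating receptors to reach the surface. With the sample in Cy5 its ratios were -0.91, -0.63, -0.99 and -0.68 in M833, against 0.11, 0.10, 0.03 and 0.03 in WT, and with the sample in Cy3 -1.00, -1.30, -1.04 and -1.08, against -0.47, -0.39, -0.30 and -0.30. The M833 arrays were all lower, and spread more widely than the WT arrays. The difference was -0.81 ± 0.06 (SE, n = 8 per cell type), or 42.8% lower.

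Fcgr1, the high-affinity receptor for IgG, had ratios of -0.53, -0.42, -0.58 and -0.66 in M833 against -0.18, -0.28, 0.10 and -0.04 in WT with the sample in Cy5. With the sample in Cy3 they were -0.39, -0.51, -0.59 and -0.54 in M833 against -0.34, -0.20, -0.05 and -0.10 in WT. The groups did not overlap, but the highest M833 array, at -0.39, came close to the lowest WT array, at -0.34. The difference was -0.39 ± 0.06, or 23.7% lower.

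Fcgr3, the low-affinity activating receptor, had overlapping groups. Its ratios were -1.18, -1.20, -0.65 and -0.99 in M833 against -1.05, -0.87, -0.86 and -0.66 in WT with the sample in Cy5. With the sample in Cy3 they were -0.56, -1.57, -1.43 and -2.08 in M833 against -1.17, -1.27, -1.08 and -1.12 in WT. The M833 arrays lay on both sides of the WT arrays, with an SD of 0.45 in M833 and 0.12 in WT after adjustment for dye. The difference of -0.20 ± 0.16 was close to its own error. It was -0.39 after scaling between arrays, and 0.06 without M833 replicates 6, 7 and 8. The numbers in the titles of these arrays begin differently from all others, and no label says what they stand for. That fit keeps 1 M833 array with the sample in Cy3, replicate 5, which at -0.56 was the highest of the M833 arrays. Fcgr3 shares much of its sequence with other Fc gamma receptor genes, which this probe may not tell apart.

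Ptpn6 was lower in M833, with an SD of 0.13 in M833 and 0.08 in WT after adjustment for dye. Its ratios in Cy5 were -1.15, -1.17, -1.29 and -1.04 in M833 against -0.74, -0.77, -0.56 and -0.64 in WT. In Cy3 they were -0.96, -1.14, -1.15 and -1.36 against -0.58, -0.75, -0.71 and -0.60. No arrays of the groups overlapped, and the difference was -0.49 ± 0.05 (SE, n = 8 per cell type), or 28.8% lower.

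**Figure D1:**
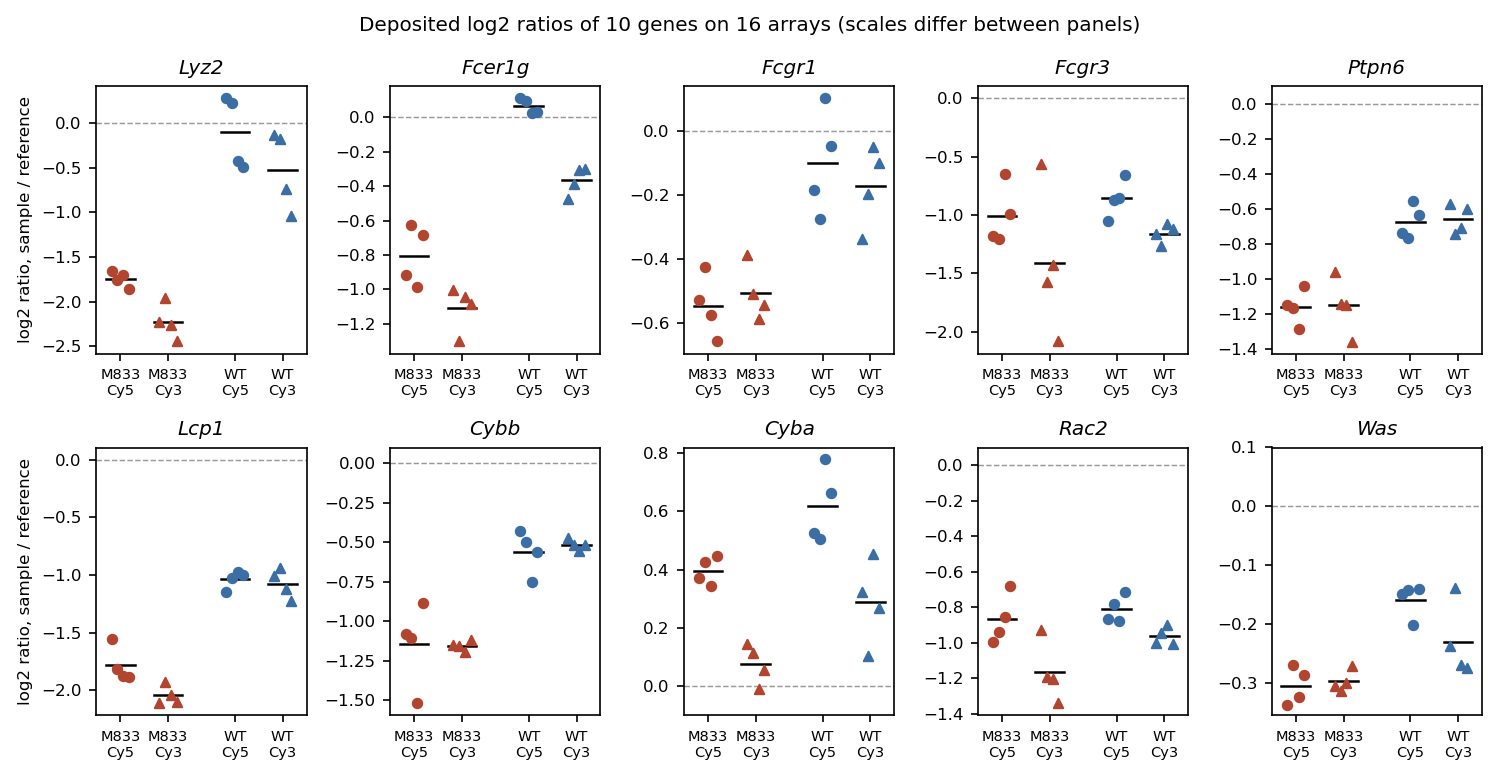
Log2 ratio of sample to reference for each of the 10 genes, with 1 point per array and black lines at the mean of 4 arrays, for M833 (red) and WT (blue) with the sample in Cy5 (circles) or Cy3 (triangles). Scales differ between panels. The groups are apart for Lyz2, Fcer1g, Fcgr1, Ptpn6, Lcp1 and Cybb, and overlap for Fcgr3, Cyba, Rac2 and Was.

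Among the genes of the oxidase, the membrane chains differed in size of change. Cybb had ratios of -1.08, -1.10, -1.52 and -0.88 in M833 against -0.43, -0.50, -0.75 and -0.56 in WT with the sample in Cy5, and of -1.15, -1.16, -1.19 and -1.12 against -0.47, -0.52, -0.56 and -0.52 with the sample in Cy3. The groups were apart, with 1 low array in each cell type among those with the sample in Cy5. Its difference was -0.61 ± 0.07, or 34.5% lower.

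Cyba was the one gene of the 10 above the reference in both cell types. It had ratios of 0.37, 0.42, 0.34 and 0.45 in M833 against 0.52, 0.51, 0.78 and 0.66 in WT with the sample in Cy5. In Cy3 the values were 0.14, 0.11, -0.01 and 0.05 in M833 against 0.32, 0.10, 0.45 and 0.27 in WT. The groups were apart in Cy5 and overlapped in Cy3 through WT replicate 6. The difference was -0.22 ± 0.05 (SE, n = 8 per cell type), or 14.0% lower.

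Rac2 ran from -1.34 to -0.68 over the M833 arrays, with a median of -0.97, and from -1.00 to -0.72 over the WT arrays, with a median of -0.89. The groups overlapped in Cy5 and in Cy3. Its difference was -0.13 ± 0.06, and it was -0.06 in Cy5 and -0.20 in Cy3. It ran from -0.30 with log ratios scaled between arrays to -0.03 without M833 replicates 6, 7 and 8, which leaves 1 M833 array with the sample in Cy3.

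Of the actin genes, Lcp1 had ratios of -1.56, -1.81, -1.88 and -1.89 in M833 against -1.14, -1.03, -0.97 and -1.00 in WT with the sample in Cy5. In Cy3 they were -2.11, -1.93, -2.04 and -2.10 in M833 against -1.01, -0.94, -1.12 and -1.23 in WT. All M833 arrays were lower, with M833 replicate 1 nearest to WT. The difference was -0.86 ± 0.06, or 44.8% lower. Was, by contrast, ran from -0.34 to -0.27 in M833, with a median of -0.30, and from -0.27 to -0.14 in WT, with a median of -0.18. Its difference of -0.11 ± 0.03 was the smallest of the 10, and its arrays overlapped with the sample in Cy3.

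**Figure D2:**
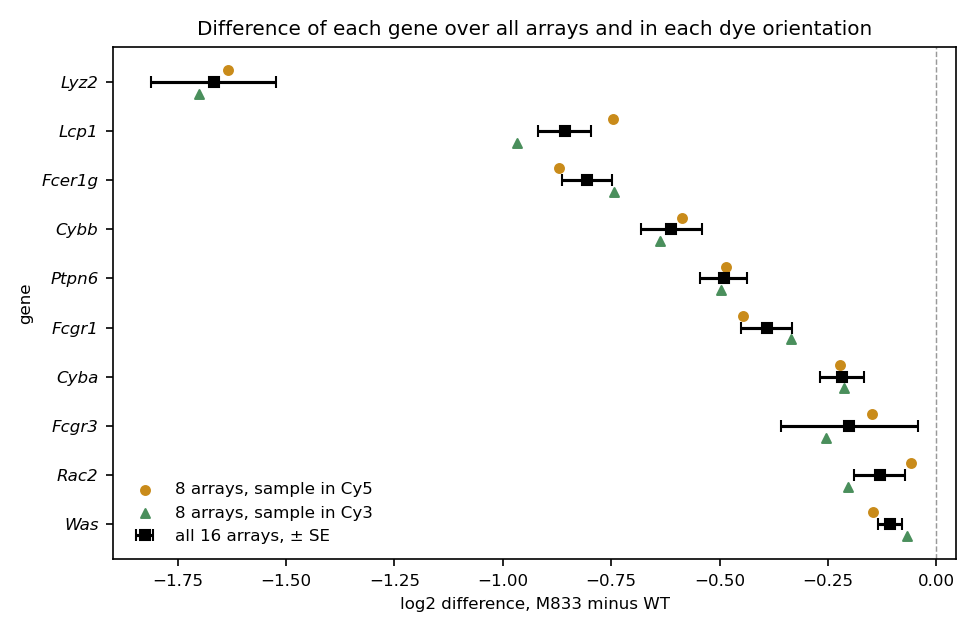
Log2 difference M833 minus WT of each gene. Black squares are the fit over 16 arrays with bars of 1 SE, circles the 8 arrays with the sample in Cy5 and triangles the 8 with the sample in Cy3. The fitted differences run from -1.67 for Lyz2 to -0.11 for Was, and both dye orientations lie below 0 in every gene.

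Whether a difference depended on the dye could be tested, as this term is independent of the contrast that chose the genes. The difference in Cy5 minus that in Cy3 ran from -0.13 for Fcer1g to 0.22 for Lcp1. In limma with the interaction term 0 of the 10 genes had an adjusted p under 0.05, and 0 of 12761 features did (0%). Without adjustment 0 of the 10 and 361 features (2.83%) were under 0.05, and the gene nearest to it was Lcp1, at 0.22 ± 0.11 (limma, unadjusted p = 0.0681). The ratio itself moved with the dye in several genes. Arrays with the sample in Cy5 were higher than those in Cy3 by 0.45 in Lyz2, 0.37 in Fcer1g, 0.35 in Fcgr3, 0.33 in Cyba and 0.23 in Rac2, and by less than 0.15 either way in the other 5. The design balances this, since each cell type had 4 arrays in each dye.

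The mean over both cell types, set against the reference, is likewise independent of their difference. Of the 10 genes 9 were below the reference and 1, Cyba, above it, all with an adjusted p under 0.05 in limma, beside 38.4% of all features below and 44.4% above. With the ratios turned, 9 would be above and 1 below. The mean of Lcp1 was -1.48 ± 0.03 (adjusted p = 1.57e-16), that of Lyz2 -1.15 ± 0.07 (adjusted p = 2.41e-10) and that of Ptpn6 -0.91 ± 0.03 (adjusted p = 1.75e-14; SE, n = 16, limma). Was was at -0.25 ± 0.01 (adjusted p = 5.19e-11) and Cyba at 0.34 ± 0.03 (adjusted p = 1.95e-09). None of the 10 changed sign or missed the threshold in any of the 30 alternative fits, where the highest adjusted p was 0.00182, for Cyba with the sample in Cy3. These are ratios to an RNA of unknown make-up and not absolute levels.

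Arrays of one cell type did not vary freely. In these data replicates 1, 2, 5 and 6 of a cell type tend to deviate together from replicates 3, 4, 7 and 8, a grouping taken from earlier results of these data and not from the labels. In WT the set 1, 2, 5 and 6 was higher than the other by 0.72 in Lyz2, at 0.04 against -0.68, where the median size of this set difference over all features was 0.13. Fcgr1 went the other way in WT, at -0.25 against -0.02, and so did Cyba, at 0.36 against 0.54. In Lyz2, Fcgr1 and Cybb the sets of WT arrays did not overlap after adjustment for dye, nor did the sets of M833 arrays in Fcgr1. The share of all features without overlap was not counted, so nothing is read from this. Fcer1g differed by -0.03 between the WT sets. In M833 the sets differed by 0.17 or less in every one of the 10, with Lyz2 at -1.90 against -2.07, beside a median size of 0.05 over all features. The difference M833 minus WT of Lyz2 was accordingly -1.31 when WT replicates 1, 2, 5 and 6 were left out, and -2.03 when the other 4 WT arrays were. For Fcgr1 the same settings gave -0.50 and -0.28.

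**Figure D3:**
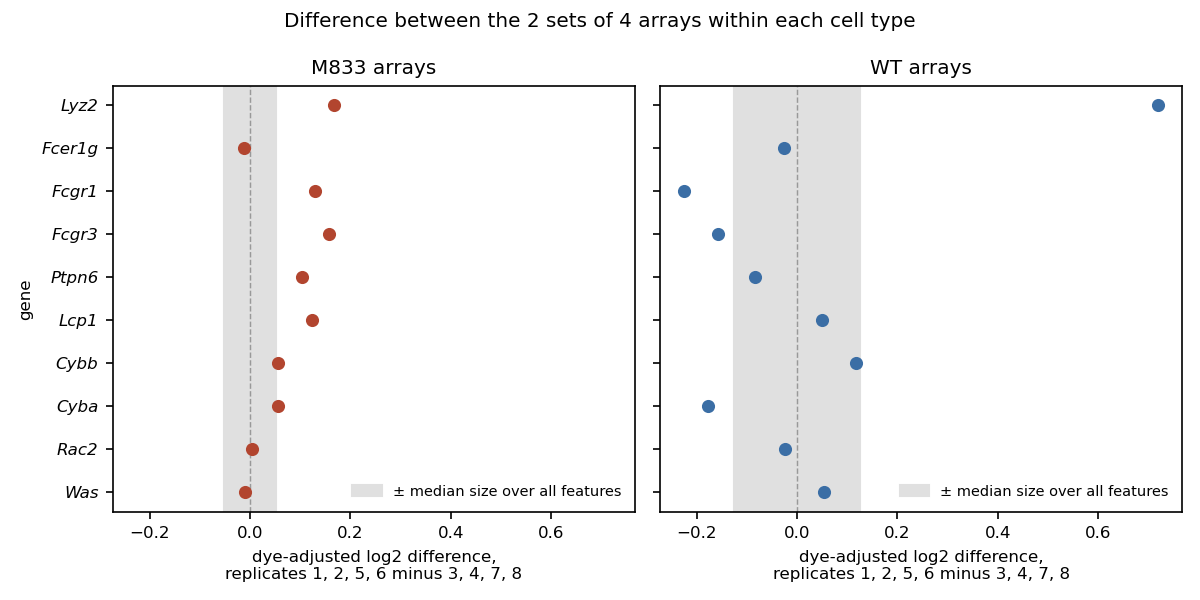
Dye-adjusted log2 difference between replicates 1, 2, 5 and 6 and replicates 3, 4, 7 and 8 for each of the 10 genes, in M833 (left) and WT (right). The grey band spans the median size of this difference over 12761 features, 0.05 in M833 and 0.13 in WT. Lyz2 in WT stands at 0.72 and Fcgr1 in WT at -0.23.

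Over all 16 dye-adjusted arrays, the pairs of genes correlated with a median r of 0.73, and all 45 pairs were above 0, a figure that holds the difference between the cell types. Within cell types, after that difference was taken out, the median r was 0.04, with 24 pairs above 0 and 21 below. The highest was between Fcgr3 and Rac2 (r = 0.77) and the lowest between Lyz2 and Fcgr1 (r = -0.61). The arrays share dyes and the sets named above, so these are descriptions over 16 arrays. Each gene was also set against the mean of the other 9 over all 16 arrays. Ptpn6 (r = 0.95), Fcer1g (r = 0.94) and Lcp1 (r = 0.94) followed it most closely, and Fcgr3 (r = 0.34) and Rac2 (r = 0.61) least.

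The named genes outside the 10 whose profile was most like their mean over the 16 dye-adjusted arrays were C1qb (r = 0.99), Rab30, Gm3636, Rnf215, Ctsb, Cdk8, Psap, Gss, Pttg1ip and Vps41 (r = 0.97). C1qb encodes a chain of the complement protein C1q, Ctsb the protease cathepsin B, and Psap the precursor of the lysosomal saposins. The 10 differed by between -1.45 (C1qb) and -0.32 (Vps41) in M833 minus WT. The 5 most opposite profiles were those of Khsrp (r = -0.97), Dbf4, Bora, Ran and Rangrf (r = -0.96), with differences from 0.64 in Khsrp to 0.30 in Rangrf. Dbf4 activates the kinase that starts replication origins, and Ran drives nuclear transport. Such likeness rests mostly on the difference between the cell types and says nothing of shared control.

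Other myeloid genes were counted from a longer marker list. Only 9 of its 63 genes had a probe under their symbol, and the defining macrophage genes Csf1r, Cd68, Adgre1, Itgam, Ptprc and Spi1 were not among them. All 9 fell in M833 in limma, beside 15.9% of all features, with a median difference of -0.55. The complement genes C1qb, C1qa and C1qc fell by 1.45 ± 0.04 (adjusted p = 1.44e-11), 1.17 ± 0.07 (adjusted p = 7.93e-08) and 0.55 ± 0.05 (adjusted p = 2.52e-06; SE, n = 8 per cell type, limma). Alox5ap, needed for making leukotrienes, fell by 0.56 ± 0.08 (adjusted p = 6.9e-05). Laptm5, a lysosomal membrane protein of blood cells, fell by 0.68 ± 0.12 (adjusted p = 0.000537), and Clec4d, a C-type lectin receptor of myeloid cells, by 0.31 ± 0.06 (adjusted p = 0.000715). The transcription factor gene Irf8 (-0.43), Rgs2 (-0.36) and Ms4a6d (-0.24) completed the list. The mean ratio of the 9 genes ran from -1.09 to -0.77 over the M833 arrays and from -0.36 to -0.22 over the WT arrays. With the sets of arrays as a random block 7 of the 9 were called, beside 11.5% of all features, and Irf8 (adjusted p = 0.092, limma) and Ms4a6d (adjusted p = 0.167) were not called. The C1q genes were known to differ when this list was made, and the list includes them.

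Outside the 10 genes, 6 relatives not restricted to blood cells were measured. Of these 1 was lower, 1 was higher and 4 did not pass, beside 15.9% and 10% of all features, with a median of -0.01. Rac1, the widely expressed relative of Rac2, differed by 0.03 ± 0.03 (adjusted p = 0.464, limma), and Wasl, that of Was, by 0.01 ± 0.03 (adjusted p = 0.752). Ptpn11, that of Ptpn6, differed by -0.04 ± 0.09 (adjusted p = 0.741; SE, n = 8 per cell type). Of the plastins related to Lcp1, Pls3 was lower by a log2 difference of -0.11 ± 0.03 (adjusted p = 0.00876), which turned to 0.07 (adjusted p = 0.409) after the arrays were scaled to one spread of log ratios. Pls1 was higher, at 0.60 ± 0.18 (adjusted p = 0.0212), and was not called with that scaling (adjusted p = 0.409) or with sets of arrays as a random block (adjusted p = 0.246). Fcgrt, the neonatal Fc receptor, differed by -0.36 ± 0.23 (adjusted p = 0.269), and by -0.81 with scaling (adjusted p = 0.0243, limma). The difference between a gene and its relative was not tested.

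Of the other Fc receptor and oxidase genes few were measured. Cd247 (0.04), Trim21 (-0.06) and Cybc1 (-0.08) did not pass the test (adjusted p = 0.614, 0.661 and 0.681, limma). Among 10 further genes of Fc receptor signalling 4 fell, 1 rose and 5 did not pass, beside 15.9% of all features lower and 10% higher, with a median of -0.20. The adaptor gene Dok1 fell by 0.53 ± 0.09 (adjusted p = 0.000521), the kinase subunit gene Pik3r1 by 0.20 ± 0.05 (adjusted p = 0.00394), the ubiquitin ligase gene Cbl by 0.31 ± 0.08 (adjusted p = 0.00835) and the adaptor gene Grb2 by 0.21 ± 0.06 (adjusted p = 0.0126; SE, n = 8 per cell type). The kinase gene Fyn rose by 0.13 ± 0.04 (adjusted p = 0.0275), a call lost without any one of WT replicates 2 and 6 and M833 replicates 3 and 7. With sets of arrays as a random block 2 of these genes were lower and none higher, beside 11.5% of all features called in either direction, with Pik3r1 (adjusted p = 0.107), Grb2 (adjusted p = 0.0521) and Fyn (adjusted p = 0.128) not called. The adaptor gene Lcp2 had a difference of -0.71 ± 0.44 with an SD of 1.26 over the M833 arrays, and did not pass (adjusted p = 0.251).

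In the wider actin list 9 of 24 further genes fell, 2 rose and 13 did not pass, beside 15.9% of all features lower and 10% higher, with a median of -0.10. Gsn, which severs filaments, fell by 0.71 ± 0.05 (adjusted p = 2.46e-07, limma), and the cortactin gene Cttn by 0.27 ± 0.03 (adjusted p = 2.08e-05). The myosin gene Myo1e fell by 0.25 ± 0.04 (adjusted p = 0.000142), and the Arp2/3 subunit gene Arpc1a by 0.21 ± 0.04 (adjusted p = 0.00054). Nckap1, of the complex that activates Arp2/3 at the leading edge, rose by 0.18 ± 0.04 (adjusted p = 0.00291). With scaling between arrays 3 were lower and 3 higher, beside 26.7% of all features called, and Cttn was at -0.06 (adjusted p = 0.514). With the random block 7 were lower and none higher, beside 11.5% of all features called, and Nckap1 was not called (adjusted p = 0.0533).

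**Figure D4:**
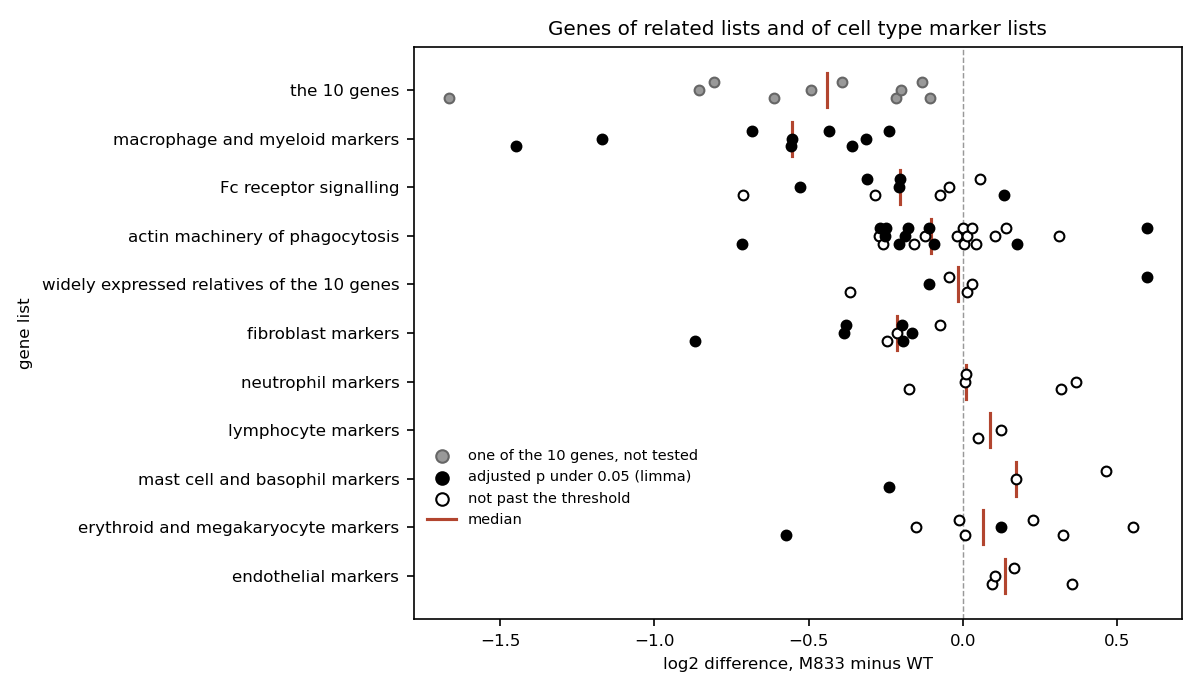
Log2 difference M833 minus WT of each measured gene in the lists, with the 10 genes at the top in grey and taken out of the other lists. Black points passed limma at an adjusted p under 0.05, white points did not, and red lines are medians. The 9 myeloid markers are all below 0 and past the threshold, with a median of -0.55, beside 15.9% of all features lower. The C1q genes among them were known to differ when the list was made. With sets of 4 arrays as a random block 7 of the 9 passed, beside 11.5% of all features called.

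Markers of other blood cells and of endothelial cells were counted too, beside 15.9% of all features lower and 10% higher. Of 5 neutrophil markers none was called, and S100a9, an abundant neutrophil protein, differed by 0.01 and lay at -4.39 in M833 and -4.40 in WT against the reference. With scaling between arrays S100a9 turned to -0.80 (adjusted p = 0.00204, limma). The other 4 were Ltf (0.32), Lcn2 (0.37), Mmp9 (-0.17) and Csf3r (0.01). The 2 lymphocyte markers Blnk (0.05) and Ighm (0.13) were not called, nor were the 4 endothelial markers Pecam1 (0.17), Cdh5 (0.10), Emcn (0.35) and Esam (0.10). Among mast cell markers Gata2 was called at -0.24 (adjusted p = 0.0303, limma), and Kit (0.17) and Hdc (0.47) were not. Of 8 erythroid and platelet markers Ppbp was called at -0.57 (adjusted p = 0.036) and Itga2b at 0.13 (adjusted p = 0.047), and Hba-x (0.23), Hbb-b1 (-0.15), Hbb-y (0.33), Alas2 (0.01), Slc4a1 (-0.01) and Gata1 (0.55) were not. The calls of Gata2, Ppbp and Itga2b were lost with the random block (adjusted p = 0.082, 0.123 and 0.271) and in 8, 9 and 13 of the 16 fits that leave out a single array. With scaling 4 of the erythroid and platelet markers were lower and 1 higher, beside 26.7% of all features called in either direction. Among the 4 were Hbb-b1 at -1.42 (adjusted p = 0.00296, limma) and Alas2 at -1.02 (adjusted p = 0.00261, limma), whose ratios lie far below 0 in both cell types.

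Fibroblast markers were lower in part as well. Of 9 measured of 15 listed, 6 fell, none rose and 3 did not pass, beside 15.9% of all features lower and 10% higher, with a median of -0.21. The mean ratio of these markers ran from -0.55 to -0.38 over the M833 arrays and from -0.22 to -0.05 over the WT arrays. Col1a2 fell by 0.87 ± 0.08 (adjusted p = 1.79e-06, limma), and the fibronectin gene Fn1 by 0.38 ± 0.06 (adjusted p = 0.000477). Col1a1 fell by 0.20 ± 0.04 (adjusted p = 0.00311) and Col3a1 by 0.38 ± 0.09 (adjusted p = 0.00349; SE, n = 8 per cell type). Fn1 was not called with scaling (adjusted p = 0.686), and with the random block 3 of the 9 were lower, beside 11.5% of all features called, Col1a1 not among them (adjusted p = 0.0636). Against the reference these markers were mixed. Fn1 lay above it, at 1.65 in M833 and 2.03 in WT, as did Vim at 0.85 and 1.04. Pdgfrb lay at 1.04 and 1.12, and Pdgfra at 0.04 and 0.26. The matrix gene Dcn lay below it, at -2.80 and -2.56, as did Lum at -2.57 and -2.41. Col3a1 was also below, at -1.29 and -0.91. Col1a2 lay at -0.86 in M833 and 0.01 in WT, and Col1a1 at -0.16 and 0.04. The part of these shifts in the lower ratios of the 10 genes was not tested.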

How the data were processed

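The deposited values are log2 ratios of sample to common reference, 1 column per array, used as the authors left them. The submitters' processing notes name limma with no version. How the arrays were normalised, background-corrected or filtered is not given in the sources used here, and array medians lay between -0.02 and 0.07. The log2 scale was read from the values. Of 15247 probes 9600 had one gene symbol in the platform annotation, an old one, 214 several and 5433 none. Probes of one gene were averaged, which gave 12761 features with 0 missing values.

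Features were fitted here with limma 3.58.1 in R 4.3.3 (lmFit, eBayes) to the 16 arrays together, with terms for cell type and for dye, and Benjamini-Hochberg adjustment over all features. Errors are SEs of the fit, or SDs of dye-adjusted ratios. Over probes, the correlation of 2 arrays was between 0.59 and 0.97, and at least 0.82 without WT replicate 2, which held 49 values above 8. Channel intensities were not used, so dim probes could not be filtered, and the number of arrays limits the precision. The script was tested on simulated data.

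The genes, lists and alternatives were chosen with earlier results of these data known. Named by rule were the 10 genes, up to 4 called genes per list in its main direction and 2 against it, all measured genes of lists of up to 8, and the 10 most and 5 least alike profiles. Laptm5, Clec4d, Irf8, Rgs2, Ms4a6d, Lcp2, Vim, Pdgfra, Pdgfrb, Dcn and Lum were named after their values were seen.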

Additional observations from a re-analysis of the deposited data

Results flagged for a closer look

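After adjustment for dye, 2 of 20 groups of 8 arrays held an array that stood far from the others, where chance flags about 1 in 20. Lcp1 on M833 replicate 1 was at -1.63, and the nearest other M833 array was at -1.85. Cybb on WT replicate 3 was at -0.74, and the nearest other WT array was at -0.57. Both genes keep their groups apart with these arrays included.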

How the results depend on the processing

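The median difference of the 10 genes, -0.44, ran from -0.55 with log ratios scaled between arrays to -0.36 without WT replicates 3, 4, 7 and 8, and from -0.47 to -0.41 when single arrays were left out. In 9 of the 10 genes the difference stayed negative in all 30 alternatives. The exception was Fcgr3, at 0.0641 without M833 replicates 6, 7 and 8, a fit that keeps 1 M833 array with the sample in Cy3. The genes were chosen for this direction on the same arrays, so nothing is read from the kept sign. The count of called features, 3301, was 2000 without the dye term, 835 with the sample in Cy5, 1100 with the sample in Cy3, 1465 with sets of arrays as a random block, 1685 without M833 replicates 1, 2, 5 and 6 and 1858 without M833 replicates 3, 4, 7 and 8. Those fits hold fewer arrays, other than the first and the random block. The count rose to 4629 when the WT set 3, 4, 7 and 8 was dropped, and to 4328 when the other WT set was. These fits also hold fewer arrays, so a smaller number of arrays did not always go with fewer calls. The cause of these changes was not tested. Leaving out single arrays gave 2878 to 3295. The split of 1276 higher and 2025 lower was 1558 and 1635 with each array centred on its median. Of the 9 myeloid markers 5 were called lower with the sample in Cy3, and 9 when any single array was left out. The dye by cell type interaction had 0 calls in all alternatives run. No paired analysis was possible because the labels give no replicate numbers. Standard errors treat arrays as independent, although sets of arrays deviated together.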
